A study of Homo sapiens with 18 samples.

Results

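Fibroblast-like marker genes, 10 of the 42141 genes in the tables, were followed through 18 RNA libraries from acini of a human mammary epithelial line. The genes were FAP, DPP4, DPT, THY1, PDGFRA, PDGFRB, LUM, DCN, FBLN1 and FBLN2, taken by name. The set was chosen by the TGF-β1 responses of FAP and DPT in each genotype, which had been noted as unlike, so the values of FAP and DPT in TGF-β1 libraries are given as a description, with no test. FAP is tested in the other libraries, although its dimerizer values were the baseline of those responses. At the level of RNA the name fibroblast-like held only in part: FAP, DCN and FBLN1 were abundant with TGF-β1, DPT was above 1 TPM in JNKKO with TGF-β1 only, and the other 6 genes stayed at or below 0.31 TPM in every library. Against the label, the FAP difference with TGF-β1 was nearly the same on the log2 scale in both genotypes, and it was DPT that differed.

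The cells were MCF-10A.B2, a non-tumour mammary epithelial line that carries an inducible HER2 chimera, either JNK-knockout (JNKKO) or wild type (WT). All grew on growth-factor-reduced basement membrane gel for 21 days in medium with donor horse serum, insulin, cholera toxin and hydrocortisone. After 7 days EGF was replaced for 14 days, in each genotype, by ethanol (control), by the B/B homodimerizer, a small molecule that pairs the chimera, or by the dimerizer with TGF-β1. The groups were JNKKO control, JNKKO dimerizer, JNKKO dimerizer with TGF-β1, WT control, WT dimerizer and WT dimerizer with TGF-β1, with 3 libraries each. The labels state neither which JNK genes were targeted, nor whether JNKKO is 1 clone, nor whether replicate libraries were grown separately. The p-values therefore rest on a spread that may be technical. The genotype tag of WT dimerizer with TGF-β1 replicate 3 reads JNK knockout against its title. The title was followed, and no call of a member was lost when that library was left out.

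Library totals were 24243537 to 34499651 expected counts. Of the 3 JNK genes, MAPK9 lay between 41.1 and 53.2 CPM (counts scaled to the library's total) in the 9 JNKKO libraries and between 58.1 and 68.9 CPM in the 9 WT libraries. MAPK8 lay above WT in JNKKO control (32.3 to 35.5 CPM, against 22.7 to 25.0 CPM) and below it in JNKKO dimerizer (28.0 to 28.9 CPM, against 29.6 to 32.2 CPM) and with TGF-β1 (25.2 to 27.2 CPM, against 31.9 to 35.4 CPM). MAPK10 lay below WT in JNKKO control (6.42 to 7.59 CPM, against 8.81 to 10.4 CPM), above it in JNKKO dimerizer (5.95 to 7.23 CPM, against 4.83 to 5.78 CPM) and overlapped it with TGF-β1. An edit that leaves the RNA in place would not be seen in such counts. The share of counts from mitochondrial genes was 10.7 to 10.9% in JNKKO control and 15.1 to 15.3% in WT control, 8.73 to 9.01% in JNKKO dimerizer and 8.88 to 9.13% in WT dimerizer, and 5.24 to 5.56% in JNKKO and 8.61 to 9.88% in WT dimerizer with TGF-β1. The part of these shifts in the results below was not tested.

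In connective tissue these genes divide the work of building and reading the matrix. FAP and DPP4 are related serine proteases on the cell surface that cut after proline, and FAP is widely used to mark activated fibroblasts in tumours and healing wounds. DCN and LUM are small leucine-rich proteoglycans that bind collagen fibrils, DPT (dermatopontin) binds decorin and collagen, and FBLN1 and FBLN2 are fibulins of elastic fibres and basement membranes. PDGFRA and PDGFRB are receptors for platelet-derived growth factors, and THY1 (CD90) is a surface glycoprotein of many mesenchymal cells. TGF-β1 signals through SMAD factors, and JNK phosphorylates JUN, a subunit of AP-1.

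The genes are spread over the genome except for 2 neighbouring pairs, given here on hg38 with GENCODE 29. FAP (chr2:162170684-162245151, minus strand) and DPP4 (chr2:161992241-162074542, minus) are 96141 bases apart, with GCG as the only coding gene between them. LUM (chr12:91102629-91111831, minus) and DCN (chr12:91140484-91183123, minus) are 28652 bases apart with no gene between. DPT lies at chr1:168695459-168729264 (minus), FBLN1 at chr22:45502238-45601135 (plus), PDGFRB at chr5:150113837-150155872 (minus), PDGFRA at chr4:54229097-54298247 (plus), THY1 at chr11:119417378-119424985 (minus) and FBLN2 at chr3:13549131-13638422 (plus). All are protein-coding.

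The promoters of DPT and FBLN1 are shown because DPT differed between the genotypes with TGF-β1 and FBLN1 in its response to the dimerizer. Each is the 250 bases before the RefSeq start, which for both genes lies inside the GENCODE 29 span given above, 5′ to 3′ on the gene's strand, from RefSeq on GRCh38.p14, where DPT is chr1:168729207-168729456 and FBLN1 is chr22:45502633-45502882. Capitals mark CAGAC, the SMAD motif, or GTCTG, its reverse complement, and the TATA motif TATAAA.
DPT: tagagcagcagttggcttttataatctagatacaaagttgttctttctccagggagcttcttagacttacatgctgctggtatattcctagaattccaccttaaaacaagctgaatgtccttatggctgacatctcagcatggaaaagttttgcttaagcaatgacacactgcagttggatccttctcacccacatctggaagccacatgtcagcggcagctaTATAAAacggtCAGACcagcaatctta
FBLN1: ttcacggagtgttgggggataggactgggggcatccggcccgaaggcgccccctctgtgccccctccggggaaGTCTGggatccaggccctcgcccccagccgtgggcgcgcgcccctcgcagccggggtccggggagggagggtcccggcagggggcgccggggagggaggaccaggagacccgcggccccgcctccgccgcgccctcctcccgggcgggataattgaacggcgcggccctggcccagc
The SMAD motif on either strand stood at position -16 in DPT and -177 in FBLN1, counted back from the start, and 38.0% of 35116 promoters of this length hold it. TATAAA on the gene's strand stood at -27 in DPT, and 6.80% of promoters hold it. The AP-1 motif TGANTCA, on either strand, was in neither sequence, and 6.57% of promoters hold it. Among the 6 genes with a promoter in the table it was found once, in PDGFRA. A match describes letters only. FAP, THY1, LUM and DCN had no entry.

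On TPM, the deposited scale adjusted for transcript length, FBLN1 was the highest of the 10 genes in all 6 groups. In JNKKO acini with TGF-β1 the order was FBLN1 (149 ± 18.8 TPM), FAP (68.1 ± 7.84), DCN (52.1 ± 7.34), DPT (6.67 ± 0.397), PDGFRB (0.263 ± 0.0416) and LUM (0.187 ± 0.0321; SD, n = 3), and none of these overlapped its neighbour. In WT acini with TGF-β1, FBLN1 (185 ± 19.2 TPM) came before FAP (90.7 ± 4.68) and DCN (90.3 ± 18.5), and FAP and DCN did not differ beyond their spread. The next gene there was PDGFRB at 0.103 ± 0.0153 TPM. In every control and dimerizer group the order was FBLN1, DCN, FAP, with FAP below 1 TPM. With TGF-β1 FAP thus stood above DCN in JNKKO.

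**Figure D1:**
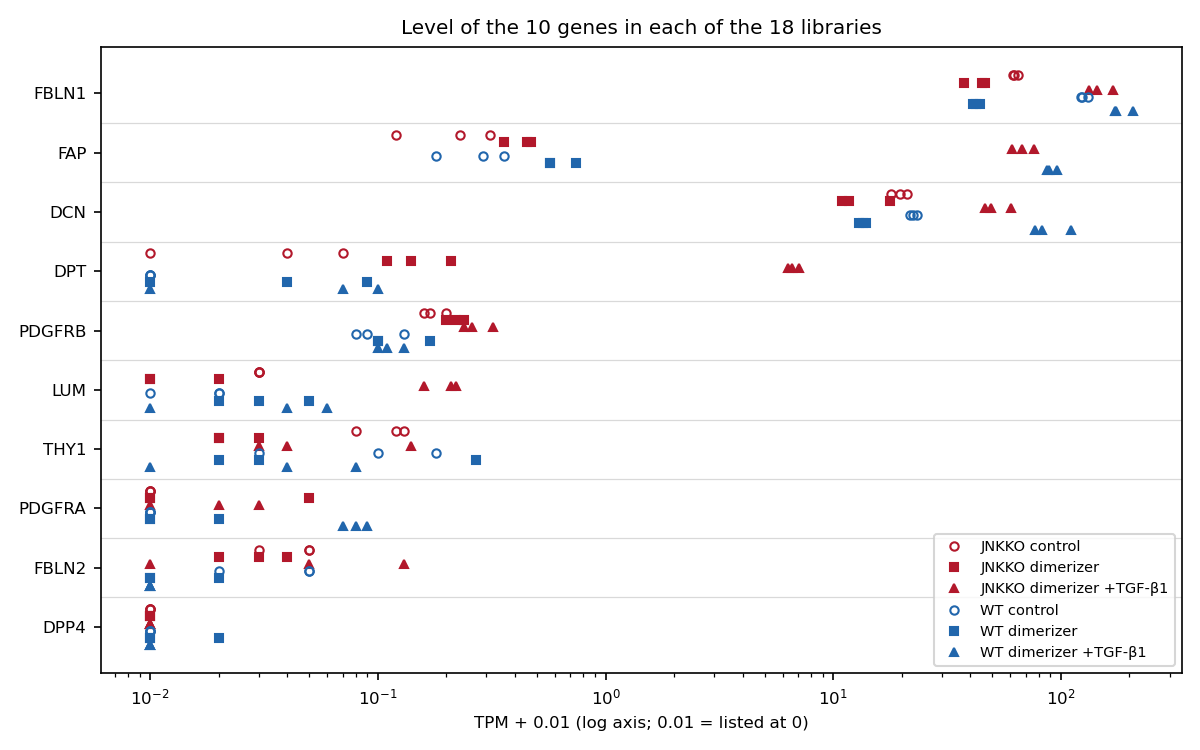
Level of the 10 genes in each library, in TPM plus 0.01 on a log axis, with 0.01 for a gene listed at 0. Red marks JNKKO and blue WT; open circles are control, squares dimerizer and triangles dimerizer with TGF-β1. FAP lay between 60.7 and 96.0 TPM with TGF-β1, against under 1 TPM in the other groups, and DPT left the low range only in JNKKO acini with TGF-β1.

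Counts were tested in 1 edgeR quasi-likelihood model over all 18 libraries, and a gene was called at a Benjamini-Hochberg adjusted p under 0.05 over the 16911 genes that passed the filter on low counts. Of the 10 genes, 5 passed the filter: FAP, DPT, PDGFRB, DCN and FBLN1. DPT passed only through JNKKO acini with TGF-β1. The other 5, DPP4, THY1, PDGFRA, LUM and FBLN2, did not pass and are described by their counts. Differences are log2 ± standard error of the model. Because RNA came from whole acini, fewer cells with a transcript and less of it per cell cannot be told apart.

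With dimerizer the matrix genes DCN and FBLN1 fell and FAP rose in both genotypes. Of the 4 tested members other than DPT, 3 were called against control in JNKKO acini (FAP higher, DCN and FBLN1 lower), where 40.4% of all tested genes were called, 22.5% higher and 17.9% lower. The same 3 were called in the same directions in WT acini, where 55.9% of all genes were, 30.3% higher and 25.6% lower. With such shares called, counts over a handful of genes say little by themselves. The dimerizer libraries also serve as the baseline for TGF-β1, so the 2 comparisons are not independent.

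FBLN1 stood at 84.6, 66.6 and 81.8 CPM in JNKKO dimerizer libraries, against 115, 122 and 115 CPM in JNKKO control libraries. In WT it stood at 75.3, 77.6 and 72.2 CPM with dimerizer, against 232, 232 and 246 CPM in control. The groups did not overlap in either genotype, and the WT control libraries were the highest. FBLN1 fell by 0.53 ± 0.10 on the log2 scale in JNKKO (edgeR adjusted p = 0.000593) and by 1.72 ± 0.10 in WT (edgeR adjusted p = 1.91e-09). The JNKKO minus WT difference of these changes, the interaction, was 1.20 ± 0.13 (edgeR adjusted p = 7.25e-06). It was the only one of the 4 tested members other than DPT called in that interaction, where 42.6% of all genes were called. Without the dimerizer FBLN1 was lower in JNKKO, at a log2 difference of -1.05 ± 0.09 in control libraries (edgeR adjusted p = 4.47e-07). With dimerizer the JNKKO minus WT difference was 0.15 ± 0.10 (edgeR adjusted p = 0.265). Without the filter on low counts, that difference of the same size was called (edgeR adjusted p = 0.00468), as it was without JNKKO dimerizer replicate 2, at 0.25 ± 0.09 (edgeR adjusted p = 0.0468).

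DCN, the proteoglycan decorin, stood at 18.5, 16.4 and 16.3 CPM in JNKKO dimerizer libraries, against 23.5, 29.3 and 26.3 CPM in JNKKO control libraries. In WT it stood at 18.7, 19.1 and 19.4 CPM with dimerizer, against 33.4, 31.4 and 32.6 CPM in control. No dimerizer library reached a control library. DCN fell by 0.56 ± 0.14 in JNKKO (edgeR adjusted p = 0.00500) and by 0.84 ± 0.13 in WT (edgeR adjusted p = 8.44e-05), on the log2 scale. The interaction was 0.27 ± 0.19 (edgeR adjusted p = 0.282). It was called without the filter on low counts (edgeR adjusted p = 0.00869) and when only the groups compared were fitted (edgeR adjusted p = 0.0271), at about the same size.

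FAP was scarce without TGF-β1. It stood at 0.866, 0.706 and 0.933 CPM in JNKKO dimerizer libraries, against 0.609, 0.214 and 0.464 CPM in JNKKO control libraries. In WT it stood at 1.11, 1.39 and 1.07 CPM with dimerizer, against 0.721, 0.580 and 0.360 CPM in control. The dimerizer libraries lay above the control libraries in both genotypes. FAP rose by a log2 difference of 1.02 ± 0.33 in JNKKO (edgeR adjusted p = 0.0165) and 1.02 ± 0.27 in WT (edgeR adjusted p = 0.00262). The JNKKO call was lost without JNKKO control replicate 2 (edgeR adjusted p = 0.103) or JNKKO dimerizer replicate 3 (edgeR adjusted p = 0.0690). The difference between the genotypes' responses was close to 0 (edgeR adjusted p = 0.99995). The dimerizer libraries were also the baseline of the TGF-β1 responses by which FAP was chosen. Tests of FAP with dimerizer, between treatments or genotypes, are thus not independent of that choice.

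DPT had 4, 4 and 8 counts in the JNKKO dimerizer libraries, against 2, 1 and 0 counts in JNKKO control libraries. WT had 3, 1 and 0 counts with dimerizer and none in the 3 control libraries. Because DPT passed the filter only through a group it was chosen on, no test of it is given. PDGFRB was not called in either genotype, with log2 differences of 0.34 ± 0.29 in JNKKO (edgeR adjusted p = 0.366) and 0.26 ± 0.33 in WT (edgeR adjusted p = 0.530). The WT value was -0.06 without WT dimerizer replicate 3.

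**Figure D2:**
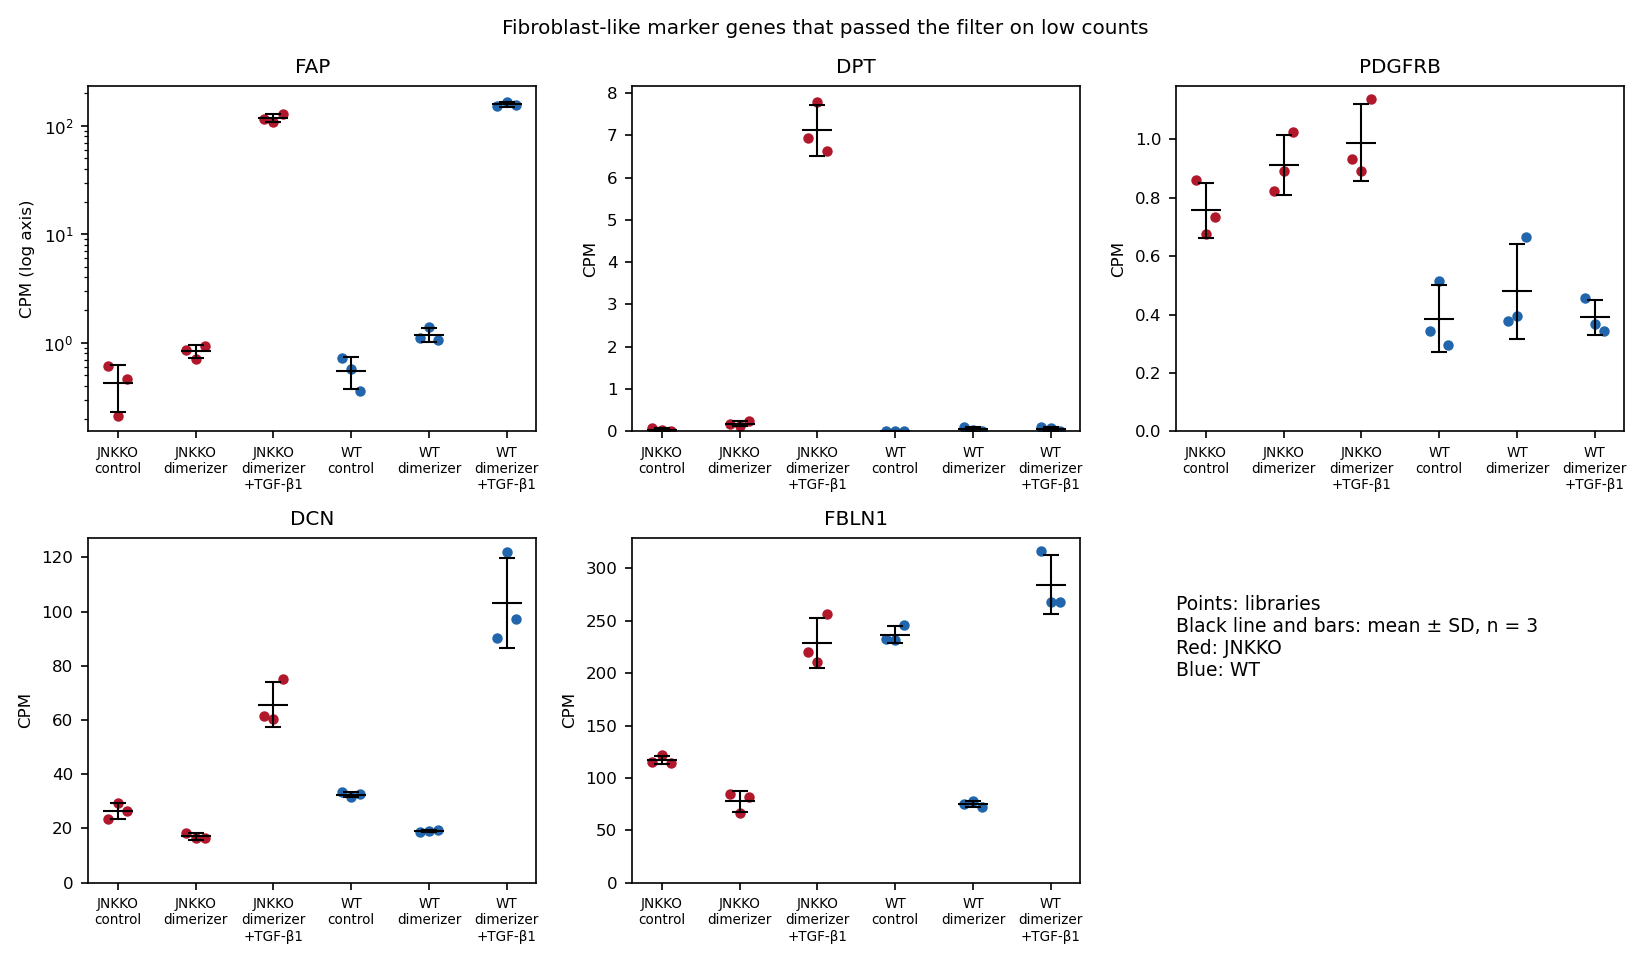
CPM of the 5 members that passed the filter, by group, with JNKKO in red and WT in blue. Points are libraries and black lines the mean ± SD of 3; FAP has a log axis and the others start at 0. PDGFRB is higher in every JNKKO library, 0.677 CPM at the lowest, than in any WT library, 0.667 CPM at the highest.

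With TGF-β1 added to the dimerizer, FAP was a mid-abundance transcript in both genotypes. It stood at 117, 109 and 129 CPM in JNKKO libraries with TGF-β1 and at 151, 167 and 155 CPM in WT libraries with TGF-β1, against the values near 1 CPM above with dimerizer alone. On TPM this was 67.3, 60.7 and 76.3 in JNKKO and 87.3, 96.0 and 88.7 in WT. The log2 difference from dimerizer was 7.11 in JNKKO and 7.08 in WT, and their difference was 0.03. With TGF-β1, FAP was lower in JNKKO than in WT by 0.38 on the log2 scale. The same ordering was present with dimerizer at -0.41 ± 0.25 (edgeR adjusted p = 0.207) and in control at -0.41 ± 0.36 (edgeR adjusted p = 0.368), neither of which was called.

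DPT was above 8 counts in a library only in JNKKO acini given the dimerizer with TGF-β1. Its counts there were 201, 235 and 186, against 3, 2 and 0 in WT acini with TGF-β1. As TPM these were 6.58, 7.10 and 6.32 in JNKKO and 0.09, 0.06 and 0.00 in WT. The JNKKO log2 difference from dimerizer was 5.24. In WT the group held 5 counts with TGF-β1 and 4 with dimerizer alone. The DPT level with TGF-β1 is among the values by which the genes were chosen.

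DCN and FBLN1 rose with TGF-β1 in both genotypes and were called in each. Of the 8 members other than FAP and DPT, 3 were tested and 2 were called in JNKKO, where 60.7% of all genes were called, 30.5% higher and 30.3% lower. The same 2 genes were called in WT, where 65.2% were called, 33.4% higher and 31.8% lower. DCN stood at 61.4, 60.4 and 75.1 CPM in JNKKO with TGF-β1, against the 16.3 to 18.5 CPM of JNKKO dimerizer. In WT it stood at 90.4, 122 and 97.2 CPM, against 18.7 to 19.4 CPM. DCN rose by 1.91 ± 0.13 in JNKKO (edgeR adjusted p = 9.13e-09) and by 2.47 ± 0.12 in WT (edgeR adjusted p = 2.34e-10), on the log2 scale.

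FBLN1 stood at 220, 211 and 256 CPM in JNKKO with TGF-β1 and at 317, 268 and 268 CPM in WT with TGF-β1. Against dimerizer it rose by 1.53 ± 0.10 in JNKKO (edgeR adjusted p = 4.47e-09) and by 1.96 ± 0.10 in WT (edgeR adjusted p = 2.11e-10), on the log2 scale. FBLN1 and DCN were thus lower with dimerizer than in control, and higher with TGF-β1 added than with dimerizer alone. The 3 treatments were parallel groups of the same length, not a time course. With TGF-β1 every FBLN1 library lay above the control libraries of its genotype, a comparison that was not tested. PDGFRB was not called, at 0.07 ± 0.28 in JNKKO (edgeR adjusted p = 0.843) and -0.27 ± 0.33 in WT (edgeR adjusted p = 0.488). The JNKKO value was -0.04 without JNKKO dimerizer with TGF-β1 replicate 3, and the WT value 0.05 without WT dimerizer replicate 3.

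**Figure D3:**
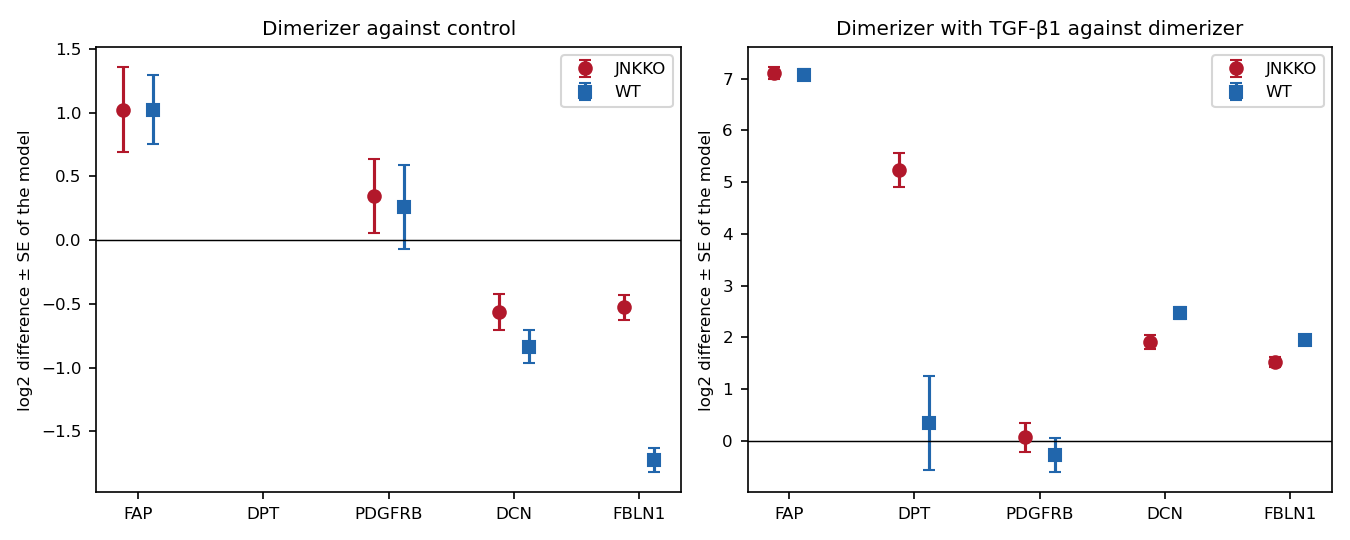
Log2 differences ± standard error of the model for dimerizer against control (left) and dimerizer with TGF-β1 against dimerizer (right), JNKKO in red and WT in blue. FAP and DPT on the right are descriptions; DPT is not drawn on the left, where it held few counts. FBLN1 fell by 0.53 in JNKKO and by 1.72 in WT with dimerizer.

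The TGF-β1 rises of both matrix genes were smaller in JNKKO on the log2 scale. The interaction was -0.56 ± 0.18 for DCN (edgeR adjusted p = 0.0285) and -0.43 ± 0.13 for FBLN1 (edgeR adjusted p = 0.0245), 2 of 3 tested members where 32.9% of all genes were called. Neither call held when only the groups compared were fitted (edgeR adjusted p = 0.0557 for DCN and 0.0666 for FBLN1). The DCN call was lost without replicate 1 or 2 of WT dimerizer, JNKKO dimerizer or JNKKO dimerizer with TGF-β1, and the FBLN1 call without WT dimerizer replicate 3, WT dimerizer with TGF-β1 replicate 1, JNKKO dimerizer replicate 1 or 3 or JNKKO dimerizer with TGF-β1 replicate 1 or 2. The highest edgeR adjusted p without 1 library was 0.0737 for DCN and 0.0627 for FBLN1.

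Between genotypes, 3 of the 4 tested members other than DPT were called in control (49.3% of all genes) and 1 of 4 with dimerizer (40.1%). With TGF-β1 all 3 tested members other than FAP and DPT were called (52.9%). PDGFRB, a receptor usually seen on mural cells and fibroblasts, was higher in JNKKO under each treatment. The log2 difference was 0.93 ± 0.32 in control (edgeR adjusted p = 0.0166), 1.02 ± 0.30 with dimerizer (edgeR adjusted p = 0.00686) and 1.36 ± 0.31 with TGF-β1 (edgeR adjusted p = 0.000442). On CPM all 9 JNKKO libraries were above all 9 WT libraries. The level was low in both, and on TPM the ranges overlapped, at 0.15 to 0.31 TPM in JNKKO and 0.07 to 0.16 TPM in WT. The control call was lost without WT control replicate 1 or 3 or JNKKO control replicate 1 (edgeR adjusted p up to 0.0710). Neither interaction was called for PDGFRB, at 0.09 ± 0.45 with dimerizer (edgeR adjusted p = 0.902) and 0.34 ± 0.43 with TGF-β1 (edgeR adjusted p = 0.590), and with dimerizer it ran from -0.17 to 0.41 when single libraries were left out.

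DCN was lower in JNKKO with TGF-β1, at -0.62 ± 0.11 (edgeR adjusted p = 0.000269), and the libraries did not overlap. With dimerizer the difference was -0.06 ± 0.14 (edgeR adjusted p = 0.768). In control it was -0.34 ± 0.13 (edgeR adjusted p = 0.0430), a call lost without any 1 of the control libraries except JNKKO control replicate 2 (edgeR adjusted p up to 0.164). FBLN1 with TGF-β1 was lower in JNKKO at -0.28 ± 0.09 (edgeR adjusted p = 0.0178). That call was lost without WT dimerizer with TGF-β1 replicate 1 or JNKKO dimerizer with TGF-β1 replicate 1 or 2 (edgeR adjusted p up to 0.0889), and when only these groups were fitted (edgeR adjusted p = 0.0716).

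The 5 members below the filter held between 1 and 64.2 counts over all 18 libraries. PDGFRA and LUM split the genotypes in opposite directions with TGF-β1. LUM, the proteoglycan lumican, had 11, 9 and 11 counts in JNKKO with TGF-β1, against 2, 0 and 3 counts in WT with TGF-β1. The ratio of summed CPM was 6.73, with a 95% counting interval of 2.59 to 22.2. PDGFRA had 2, 2 and 0 counts in JNKKO with TGF-β1, against 8, 10.6 and 9.51 expected counts in WT with TGF-β1, a ratio of 0.155 (0.0395 to 0.443). These intervals cover counting error only. Without the filter, 6 of the 8 members other than FAP and DPT were called between genotypes with TGF-β1 by the same test, where 32.3% of 27495 genes were called. That count rests in part on few reads. DPP4 held 0 counts in both of these groups and THY1 held 7 in each. The 6 thus take in PDGFRA and FBLN2, and FBLN2 had 9, 0 and 3 counts in JNKKO and 0 in WT. AC058822.1, which overlaps PDGFRA on the same strand, held 0 counts in JNKKO and 18.9 in WT with TGF-β1, so the PDGFRA values are uncertain.

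THY1 had 3.13 counts over the 3 JNKKO dimerizer libraries, against 18.7 in JNKKO control, a ratio of 0.145 (0.0275 to 0.493). In WT it had 9 counts with dimerizer, against 19.3 in control, a ratio of 0.457 with an interval of 0.182 to 1.06. With TGF-β1 each genotype held 7 counts. USP2-AS1 overlaps THY1 on the opposite strand with 43 to 114 counts a group, and the use of strand in counting is not stated, so THY1 is uncertain. FBLN2 held 9 counts in each control group. With TGF-β1 it held 12 in JNKKO, of which 9 came from replicate 1, and 0 in WT. DPP4 had 1 count in all 18 libraries. FAP too has a partner on the opposite strand, AC007750.1, with 249 counts in JNKKO and 367 in WT with TGF-β1, beside 10292 and 14894 for FAP in the same groups.

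**Figure D4:**
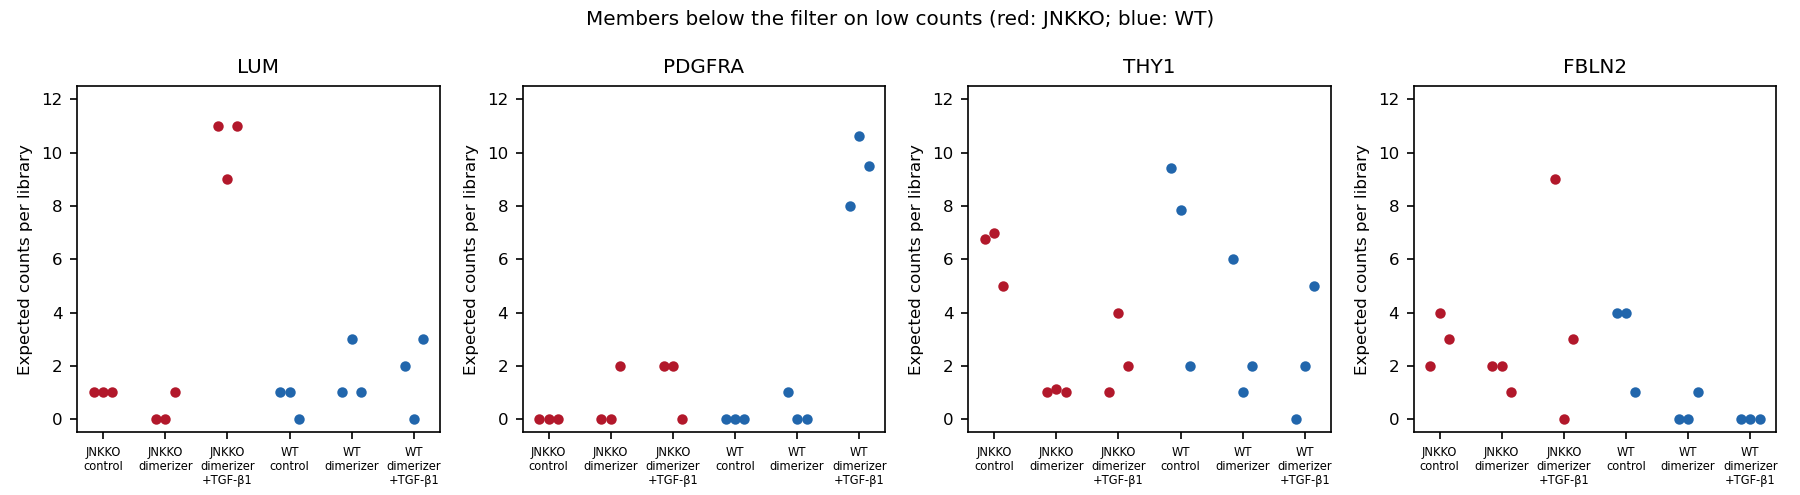
Expected counts per library of 4 members below the filter, JNKKO in red and WT in blue, on a linear axis. LUM reaches 9 to 11 counts in JNKKO with TGF-β1 and PDGFRA 8 to 10.6 in WT with TGF-β1. DPP4, with 1 count in all, is not drawn.

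Other genes of the same families were counted on lists. The counts with TGF-β1 stand beside 60.7% of all tested genes called in JNKKO (30.5% higher) and 65.2% in WT (33.4% higher), and those with dimerizer beside 40.4% in JNKKO and 55.9% in WT. Among 14 other small leucine-rich proteoglycans 5 were tested. With TGF-β1, 2 rose and 2 fell in JNKKO (median log2 0.93) and 3 rose and 1 fell in WT (median 2.14), beside a median over all genes of -0.01 in JNKKO and 0.00 in WT. BGN (biglycan), the closest relative of decorin, rose by 3.90 ± 0.33 in JNKKO (edgeR adjusted p = 1.98e-11) and 4.59 ± 0.31 in WT (edgeR adjusted p = 1.65e-13), to 1.31 and 1.87 TPM in these groups. BGN held only 11 counts in each dimerizer group. ECM2 went the other way, with 264 counts with dimerizer and 107 with TGF-β1 in JNKKO, and 410 and 167 in WT. With dimerizer 2 fell in JNKKO and 3 in WT and none rose; BGN fell by 1.42 ± 0.43 in JNKKO (edgeR adjusted p = 0.00900) and by 2.08 ± 0.40 in WT (edgeR adjusted p = 5.33e-05).

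Of 12 fibulin relatives 10 were tested. With TGF-β1, 7 rose and 2 fell in JNKKO (median 1.64; 60.7% of all tested genes called) and 7 rose and none fell in WT (median 1.49; 65.2% called). FBLN5, a fibulin needed for elastic fibres, rose by 7.80 ± 0.18 in JNKKO (edgeR adjusted p = 1.58e-13) and 6.39 ± 0.17 in WT (edgeR adjusted p = 6.77e-13), to 493 and 224 TPM in these groups. With TGF-β1 it was higher in JNKKO than in WT by 1.20 ± 0.11 (edgeR adjusted p = 1.06e-06), the opposite direction to FBLN1. EFEMP1 (fibulin-3) fell by 0.39 ± 0.08 in JNKKO (edgeR adjusted p = 0.000498) and rose by 0.40 ± 0.07 in WT (edgeR adjusted p = 0.000134). LTBP1, which stores latent TGF-β in the matrix, rose by 1.44 ± 0.10 in JNKKO (edgeR adjusted p = 1.74e-08) and 1.85 ± 0.10 in WT (edgeR adjusted p = 1.18e-09). With dimerizer 5 rose and 2 fell in each genotype.

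Among 10 PDGF ligands and related receptors, 7 were tested. With TGF-β1, 5 rose and 2 fell in JNKKO (median 1.17) and 6 rose and 1 fell in WT (median 1.35). PDGFC, a ligand of PDGFRA, rose by 2.39 ± 0.08 in JNKKO (edgeR adjusted p = 7.28e-17) and 1.35 ± 0.08 in WT (edgeR adjusted p = 4.33e-12). PDGFA fell by 0.21 ± 0.08 in JNKKO (edgeR adjusted p = 0.0329) and rose by 0.41 ± 0.08 in WT (edgeR adjusted p = 2.22e-05). On TPM PDGFA did not fall in JNKKO, at 7.64 ± 1.04 with dimerizer and 7.90 ± 0.271 with TGF-β1 (SD, n = 3). Ligands were present at 44.8 TPM for PDGFC and 7.90 TPM for PDGFA in JNKKO with TGF-β1, and 15.4 and 13.7 TPM in WT with TGF-β1, while PDGFRA and PDGFRB stayed at or below 0.31 TPM. With dimerizer 3 rose and 1 fell in JNKKO and 4 rose and 1 fell in WT. Of 7 relatives of DPP4 6 were tested, and with TGF-β1 1 rose and 3 fell in JNKKO and 4 rose and 2 fell in WT. PRCP, a lysosomal peptidase, fell by 0.24 ± 0.04 in JNKKO (edgeR adjusted p = 7.46e-06) and by 0.43 ± 0.04 in WT (edgeR adjusted p = 6.54e-11), on the log2 scale. The JNKKO fall of PRCP was not seen on TPM, at 32.6 ± 0.900 with dimerizer and 33.5 ± 1.46 with TGF-β1.

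Other fibroblast and stromal markers numbered 36, of which 21 were tested. With TGF-β1, 14 rose and 2 fell in JNKKO (median 0.78; 60.7% of all tested genes called) and 12 rose and 5 fell in WT (median 0.67; 65.2% called). POSTN (periostin) rose by 10.64 ± 0.34 in JNKKO (edgeR adjusted p = 5.10e-12) and 9.66 ± 0.39 in WT (edgeR adjusted p = 6.72e-11), to 1341 and 177 TPM in these groups. PDPN (podoplanin) rose by 2.16 ± 0.05 in JNKKO (edgeR adjusted p = 8.85e-25) and 2.07 ± 0.05 in WT (edgeR adjusted p = 8.08e-25). GAS1 went the other way. Its mean was 7.83 TPM with dimerizer and 3.44 TPM with TGF-β1 in JNKKO, and 17.8 and 9.99 TPM in WT. Collagen genes that define fibroblasts were uneven. GAS1, COL1A2, COL3A1, TCF21 and TWIST1 were picked after their values were seen. COL1A1 had 42.9 TPM in JNKKO and 73.1 TPM in WT with TGF-β1. COL1A2, whose chain joins that of COL1A1 in type I collagen, had 3 counts in JNKKO and 4 in WT with TGF-β1, and COL3A1 had 0 and 3. Among mesenchymal transcription factors TCF21 held at most 3 counts a group, while the group means of TWIST1 ran from 18.7 to 35.7 TPM and those of TWIST2 from 17.4 to 51.0 TPM.

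**Figure D5:**
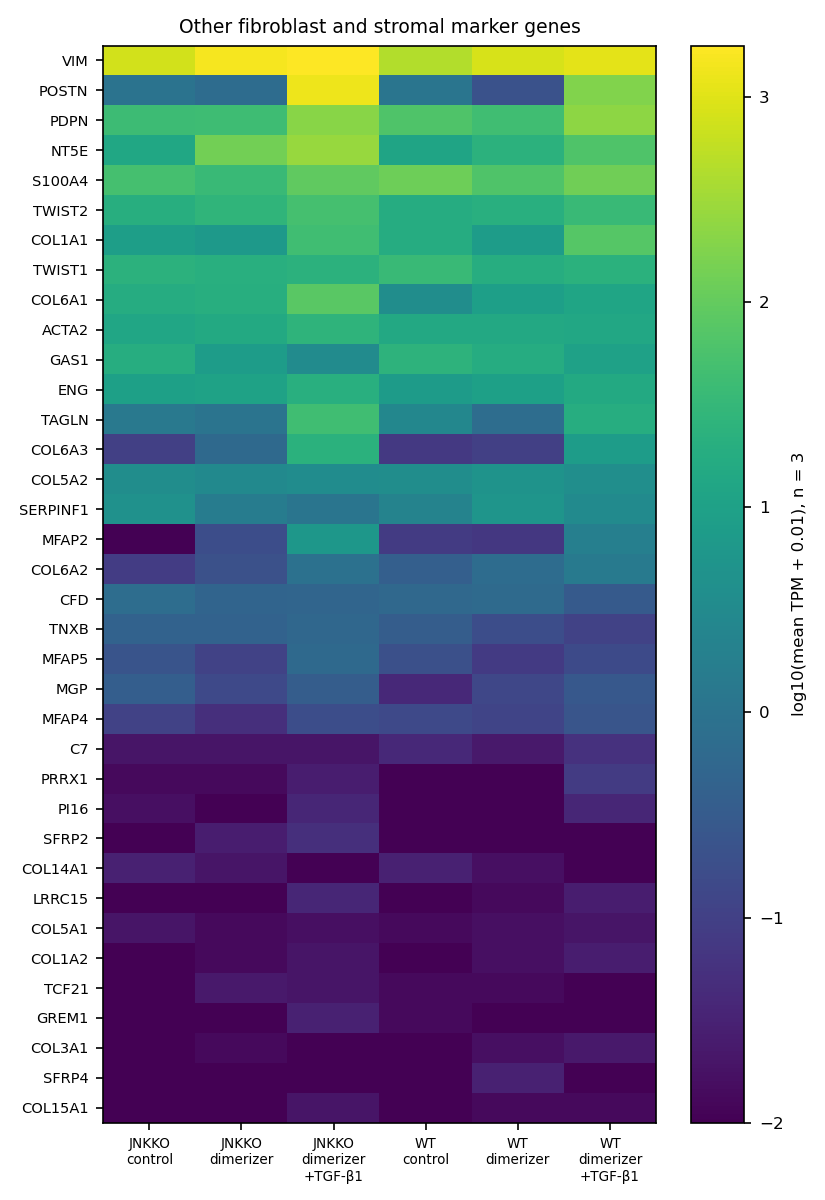
Mean level of 36 other fibroblast and stromal marker genes in each group, as log10 of TPM plus 0.01 (n = 3), ordered by their mean over the groups. Among the upper rows, POSTN is abundant with TGF-β1 only. VIM (450 TPM or more) and PDPN (39.0 TPM or more) are abundant in all 6 groups. At the foot, COL1A2, COL3A1 and TCF21 are at or near 0 in all 6 groups.

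Markers of other cells were set beside these. Mammary epithelial identity genes (15 of 16 tested) summed to 14060 to 15121 TPM in JNKKO and 16878 to 17903 TPM in WT with TGF-β1, against 10310 to 10685 TPM in JNKKO and 9914 to 10053 TPM in WT with dimerizer. With TGF-β1 5 rose and 9 fell in JNKKO, and 8 rose and 7 fell in WT. These counts, and those of the lists below, stand beside 60.7% of all tested genes called in JNKKO and 65.2% in WT. KRT5, the basal keratin, stayed at 1989 TPM or more in every library, although it fell with TGF-β1 by 1.14 ± 0.07 in JNKKO (edgeR adjusted p = 3.49e-09) and by 0.66 ± 0.07 in WT (edgeR adjusted p = 1.30e-06), on the log2 scale. Mural cell markers (5 of 10 tested) had 2 higher and 2 lower in JNKKO and 1 higher and 1 lower in WT. MCAM rose by 5.46 ± 0.18 in JNKKO (edgeR adjusted p = 3.92e-13) and 3.00 ± 0.17 in WT (edgeR adjusted p = 3.80e-10). NOTCH3 went the other way. Its mean was 1.61 TPM with dimerizer and 1.18 TPM with TGF-β1 in JNKKO, and 2.22 and 0.48 TPM in WT. CNN1 was at 0 counts throughout. Immune and endothelial markers (7 of 13 tested) had 0 higher and 3 lower in JNKKO and 1 higher and 3 lower in WT. PTPRC stood at 14 to 69 counts a group and CDH5 at 0 or 1. Others on this list were higher, with CD14 at 84 to 639 counts a group and ITGAM at 7 to 296. PECAM1 held 41 to 896 counts a group, with 896 in JNKKO control and 183 in WT control. Their summed level was 37.9 to 42.0 TPM in JNKKO and 11.5 to 17.5 TPM in WT with TGF-β1, 35.6 to 38.8 TPM in JNKKO and 11.7 to 12.4 TPM in WT with dimerizer, and 10.7 to 12.4 TPM in JNKKO and 11.4 to 12.7 TPM in WT control. CD68, a lysosomal protein abundant in macrophages, averaged 33.6 TPM in JNKKO and 7.11 TPM in WT with dimerizer, and 5.02 TPM in JNKKO and 4.61 TPM in WT control. The part of this list in the members' values was not tested. CNN1, PTPRC and CDH5 were picked after their values were seen. Of 5 adipocyte markers 1 was tested and not called with TGF-β1 in either genotype. All 12 tested TGF-β response genes rose in each genotype.

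Across the 18 libraries the genes most like FAP, among 11715 that reached 5 CPM in a group, were PLEKHA1 (Pearson r = 0.991 on log2 CPM), CDK14 (0.991) and DCLK1 (0.990). The genes most like DPT were RASAL2 (0.968), PGK1 (0.963) and MAN1A1 (0.962). For FBLN1 this was ID3 (0.990) and for PDGFRB SIMC1 (0.897). Likeness did not mean a like range: the group means of PLEKHA1 ran from 63.2 to 127 CPM, while those of FAP ran from 0.429 to 158 CPM. Among the members, r was 0.883 for FAP with DCN, 0.880 for DCN with FBLN1, 0.587 for FAP with DPT and 0.635 for DPT with PDGFRB. These describe 18 libraries in 6 groups, and the TGF-β1 libraries stand apart from the rest, so each r mainly restates the group means.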

How the data were processed

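Poly(A)-selected, ribosomal-RNA-depleted RNA was sequenced from both ends, per the labels' protocols. Reads were trimmed with cutadapt and quantified with RSEM on hg38, per the submitters' processing notes. Which aligner, annotation and strand setting they used is not given in the sources used here. Per gene, the authors deposited RSEM expected counts and TPM, per the file headers. Of 42141 rows, 41959 (99.57%) were matched to GENCODE 29 by transcript, which gave positions and restored gene names altered in the tables (PGK1 among those printed).

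Expected counts were rounded and tested with edgeR 4.0.16 in R 4.3.3 (robust quasi-likelihood F test, TMM, filterByExpr with a minimum count of 10, 1 mean per group over all 18 libraries). At the median total of 30290098 a count of 10 is 0.330 CPM; CPM scales a count to the library's total. A standard error is the size of the log2 difference over the root of its F. The common biological coefficient of variation was 4.47%. No replicate pair agreed within sampling noise (chi-square per gene 2.28 to 12.1). The test was checked on simulated data. Alternatives were DESeq2 1.42.0, limma 3.58.1 on log2(TPM + 1) and log2(TPM + 0.1), RLE scaling, no filter, only the groups compared, a replicate block and leaving out each library. Ratios of summed counts carry exact binomial 95% intervals. Tables and figures used Python 3.11.15, pandas 2.3.3, scipy 1.17.1 and matplotlib 3.10.9.

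The members and lists were chosen with earlier results of these data known. The 10 members are named throughout; from each list up to 4 called genes with the largest mean TPM could be named. GAS1, TCF21, TWIST1, COL1A2, COL3A1, CNN1, PTPRC and CDH5 fall outside that rule and were picked after their values were seen. The likeness search for DCN is not reported here.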

Additional observations from a re-analysis of the deposited data

Results flagged for a closer look

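A difference between the genotypes' responses, tested as an interaction, was called in 3 results. The dimerizer interaction was called for 1 of the 4 tested members other than DPT, beside 42.6% of all tested genes. The TGF-β1 interaction was called for 2 of 3 tested members, beside 32.9% of all tested genes. FBLN1 responded differently to the dimerizer, with a JNKKO minus WT difference of log2 changes of 1.20 (edgeR adjusted p = 7.25e-06), from a change of -0.53 in JNKKO and -1.72 in WT. DCN responded differently to TGF-β1, at -0.56 (edgeR adjusted p = 0.0285), from 1.91 in JNKKO and 2.47 in WT. FBLN1 did so too, at -0.43 (edgeR adjusted p = 0.0245), from 1.53 in JNKKO and 1.96 in WT. Neither TGF-β1 call held when only the groups compared were fitted (edgeR adjusted p = 0.0557 for DCN and 0.0666 for FBLN1), and each was lost without some single libraries (edgeR adjusted p up to 0.0737 for DCN and 0.0627 for FBLN1). The mitochondrial share of counts was 10.7 to 10.9% in JNKKO control and 15.1 to 15.3% in WT control, and 5.24 to 5.56% in JNKKO and 8.61 to 9.88% in WT with TGF-β1; its part in these differences was not tested.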

How the results depend on the processing

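Of 639 values of members under an alternative, 566 were scored as the same. For tested values this meant the same direction and the same side of the threshold. For the untested values of FAP and DPT with TGF-β1 it meant a move smaller than the spread between replicates. Of the others, 42 lost a call, 5 gained one, 17 turned sign and 9, all untested values of FAP or DPT with TGF-β1, moved by more than that spread. Counts of called members below include DPT in the comparisons without TGF-β1 libraries. DPT passed the filter only through a group it was chosen on, so its part in these scores and counts is not a test. With DPT not counted, the main model called 3 members in place of 4 for dimerizer in JNKKO. Between genotypes with dimerizer it called 1 in place of 2. Without the filter on low counts, the count of called members was 6 in place of 3 between genotypes with TGF-β1 and 2 in place of 1 for the dimerizer interaction. With only the groups compared it was 1 in place of 2 between genotypes with dimerizer, 2 in place of 1 for the dimerizer interaction and 0 in place of 2 for the TGF-β1 interaction. With limma on log2(TPM + 1) it was 1 in place of 3 between genotypes in control, 1 in place of 2 with dimerizer and 1 in place of 2 for the TGF-β1 interaction, and with limma on log2(TPM + 0.1) it was 1 in place of 2 for the last. Leaving out 1 library gave 2 to 4 called members for dimerizer in JNKKO, 1 to 3 between genotypes in control, 1 to 3 with dimerizer and 0 to 3 for the TGF-β1 interaction. Over all genes, only the groups compared gave 6679 calls in place of 6775 between genotypes with dimerizer. For the dimerizer and TGF-β1 interactions it gave 7196 in place of 7200 and 5529 in place of 5570. Limma on log2(TPM + 1) gave 7571 in place of 8335 between genotypes in control and 7198 in place of 6775 with dimerizer. For the TGF-β1 interaction it gave 5290 in place of 5570. Without 1 library, dimerizer in JNKKO had 5945 to 6285 in place of 6829.

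The values that turned sign were small or rested on few counts, and none was called. The dimerizer interaction of FAP was 0.0037 with only the groups compared and 0.0005 with DESeq2, and ran from -0.3314 to 0.3468 without 1 library. That of DPT, whose WT control libraries were at 0, was 0.0988 on log2(TPM + 1) and 0.5012 on log2(TPM + 0.1) with limma, and ran from -1.7476 to 0.0845 without 1 library. Without 1 library PDGFRB ran from -0.1687 to 0.4102 for that interaction, from -0.0387 to 0.1623 for TGF-β1 in JNKKO, from -0.4089 to 0.0520 for TGF-β1 in WT and from -0.0647 to 0.5142 for dimerizer in WT.

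Libraries that share a replicate number did not deviate together (correlations of -0.059 to 0.053), so the numbers were not taken as pairs. With a replicate block the DCN difference between genotypes in control was -0.34 (edgeR adjusted p = 0.0515), and no other call of a member changed. Depth limits the 5 members below the filter, where a library holds at most 11 counts.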

Other observations

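The TPM of DCN per CPM, divided by the median of that ratio over genes of the library, lay between 1.48 and 1.72 in 16 libraries and was 2.03 in JNKKO control replicate 1 and 2.16 in JNKKO dimerizer replicate 1. The DCN level of these 2 libraries was thus higher on TPM than on CPM beside the other libraries of their groups. For FAP the same ratio lay between 1.05 and 1.17 and for FBLN1 between 1.17 and 1.25.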
